A study of Homo sapiens with 14 samples.

Results

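The genes described here are 6 ephrin receptor genes (EPHA4, EPHA5, EPHA7, EPHB2, EPHB3 and EPHB4) and 4 genes for their ligands, the ephrins (EFNA1, EFNA4, EFNB1 and EFNB2). They are 10 of the 22410 genes in the count tables and 10 of the 22 genes of the human ephrin receptor and ephrin family. The genes were selected on family membership with earlier expression values of these data in view, and each was represented by the transcript with its highest mean level over the 14 libraries. The low level of EPHA5 in the SA1Q cells was among those results, so the values of EPHA5 against ctrl are given below as a description, with no p-value.

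Ephrin receptors are receptor tyrosine kinases at the cell surface, and ephrins are ligands that stay attached to the membrane of a neighbouring cell. Ephrin-A ligands are held by a lipid anchor and bind mainly EPHA receptors, whereas ephrin-B ligands cross the membrane and bind mainly EPHB receptors, with EPHA4 binding both classes. Contact between the cells can signal in both directions, and the family is known for guiding axons, setting tissue boundaries and shaping blood vessels and epithelia.

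Polyadenylated RNA was sequenced from the 293 Flip-In T-REx line, which derives from human embryonic kidney and has a site for inserting a transgene. The 14 libraries form 7 groups of 2. The group ctrl carried the empty vector. SA1Q and SA2Q carried SNAP-ADAR1Q and SNAP-ADAR2Q, which are fusions of the SNAP tag to the RNA-editing deaminase ADAR1 or ADAR2 with a glutamine that raises activity. SA1Q+gRNA and SA2Q+gRNA were the same lines with a guide RNA, and SA1+gRNA and SA2+gRNA carried the fusions without that change, also with a guide. The study looked for off-target editing in these lines, and the question here is how the transcript levels of the ephrin genes differed between them. No group holds the SA1 or SA2 fusion without a guide, and the sources used here do not give the guide's target, any induction of the transgene or whether a line is 1 clone. A line difference and a difference between clones therefore cannot be told apart, and if the 2 libraries of a group are not from separate cultures, the p-values measure technical spread only.

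The libraries held 43.0 to 130.13 M fragments. ADAR transcripts were at 1085 to 1603 CPM (fragment counts scaled to library size) in the 6 libraries labelled SA1Q or SA1 and at 297.1 to 340.1 in the other 8, and ADARB1 transcripts at 939.5 to 1163 CPM in the 6 labelled SA2Q or SA2 and at 25.54 to 37.21 in the other 8. On all genes, 2 libraries stood apart on the first principal component, ctrl replicate 1 (-39.7) and SA1Q+gRNA replicate 1 (-43.9), and results that rest on them are given with and without both. In SA1+gRNA replicate 2 all counts were even numbers (100%), against 47.7% to 48.7% in the others. All 5 epithelial markers (KRT8, KRT18, KRT19, EPCAM and CDH1) and 5 of 6 neuronal-lineage markers reached 1 CPM. None of the 5 endothelial and 3 hepatocyte markers did, and 2 of 7 fibroblast and 2 of 7 blood markers did, with DCN, THY1, CD3E and HBB under 0.1 CPM in every library. In bulk RNA, fewer cells of a kind and less RNA per cell cannot be told apart.

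The ephrin-A genes EFNA4, EFNA3 and EFNA1 lie next to each other on the plus strand of chromosome 1, and all 3 were at their lowest in the SA1Q line. They span 71.2 kb of hg19, with EFNA4 at 155036213 to 155042029, EFNA3 at 155051348 to 155060014 and EFNA1 at 155100349 to 155107386. Because they are neighbours with the same direction of difference, the 150 bases before the annotated start of each are shown, from RefSeq on GRCh38.p14. The windows are chr1:155063590-155063739 for EFNA4, chr1:155078687-155078836 for EFNA3 and chr1:155127726-155127875 for EFNA1. Capitals mark the GC box, searched as GGGCGG on both strands, a motif that Sp-family factors are known to bind.
EFNA4: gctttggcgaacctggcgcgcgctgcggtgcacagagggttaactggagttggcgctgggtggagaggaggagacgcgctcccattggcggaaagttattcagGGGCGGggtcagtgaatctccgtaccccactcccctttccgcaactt
EFNA3: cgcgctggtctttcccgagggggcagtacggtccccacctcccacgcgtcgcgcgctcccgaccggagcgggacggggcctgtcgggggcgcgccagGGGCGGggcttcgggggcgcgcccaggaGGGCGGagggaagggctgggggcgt
EFNA1: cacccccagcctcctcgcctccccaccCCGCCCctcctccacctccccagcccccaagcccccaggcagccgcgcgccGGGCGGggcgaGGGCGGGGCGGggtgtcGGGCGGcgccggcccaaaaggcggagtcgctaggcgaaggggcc
The EFNA4 window held 1 GC box, that of EFNA3 held 2 and that of EFNA1 held 5, of which 2 share a base. At least 1 was found in 36.8% of 35116 promoters in windows of the same length, at least 2 in 18.3% and at least 5 in 1.83%. The windows of EFNA3 (80.0% G or C) and EFNA1 (81.3%) were richer in G and C than the median promoter window (60.0%), and that of EFNA4 (62.0%) was near it. No TATA box (TATAAA on both strands) was found in the 250 bases before any of the 3 starts. These matches describe the letters only.

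Per transcript length, the ephrin-B side of the family was the more abundant among the 10 genes. FPKM, fragments scaled to transcript length and library total, was highest for EFNB2, which encodes ephrin-B2 (median 25.5, range 22.2 to 28.5), and next for EPHB4, its main receptor in vessels (median 23.0, range 21.5 to 26.2). EPHB4 exceeded EFNB2 in 2 of the 14 libraries, so these neighbours in the order were not separated. EFNB1 (median 13.5) and EPHA7 (median 8.83) followed, each below the gene before it in the family's order in every library. EFNA1 (median 4.41), EFNA4 (3.44), EPHB2 (3.16) and EPHA4 (2.80) made up a middle stretch in which the order of neighbours changed between libraries. EPHB3 was at a median of 0.825 FPKM, and EPHA5 was the lowest of the 10, at a median of 0.0760.

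Ligands of the B class took a median of 33.4% of the family's summed FPKM, EPHA receptors 30.3%, EPHB receptors 21.7% and ephrin-A ligands 14.5%. Of the 12 genes not among the 10, EPHA2 lay between EPHB4 and EFNB1 (median 16.4 FPKM), and EPHA1 was close to 0 (0 to 0.0411 FPKM).

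**Figure D1:**
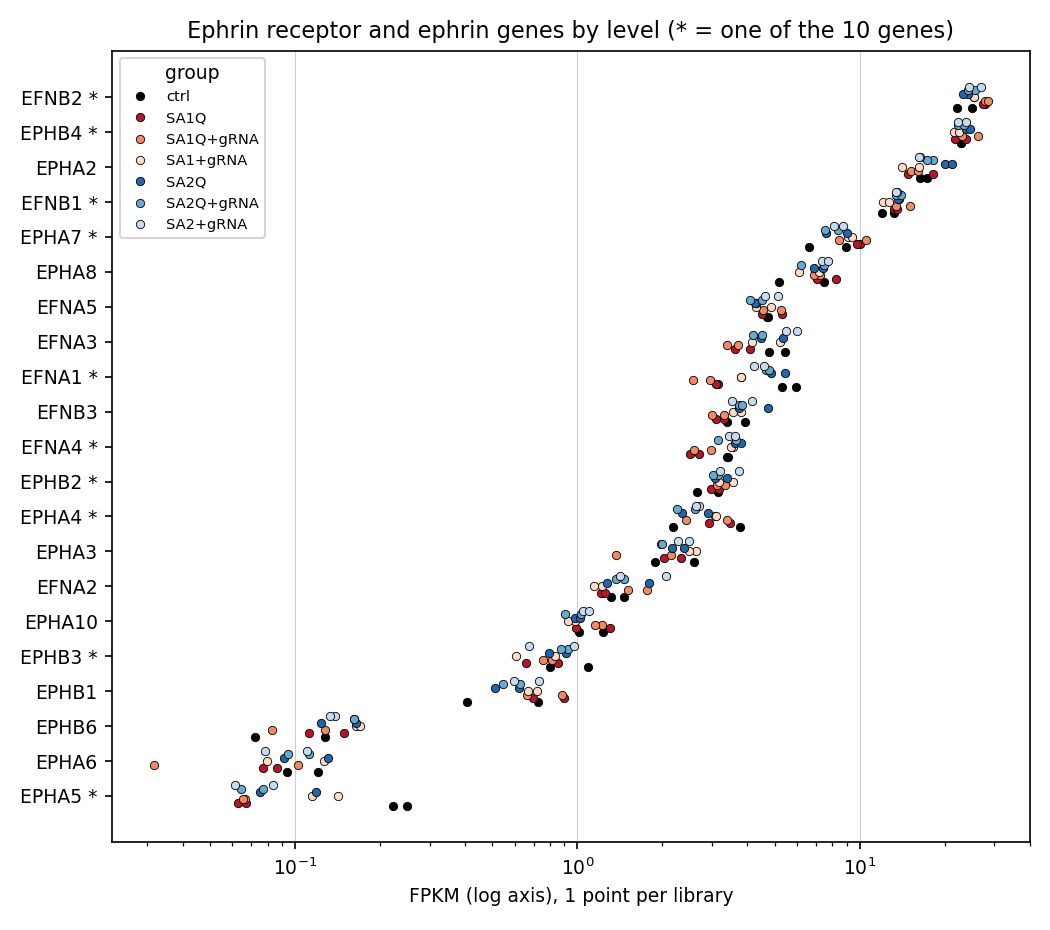
FPKM (log axis) of the ephrin receptor and ephrin genes, 1 point per library, coloured by group, with genes ordered by median and the 10 genes starred. EPHA1 is left out because it was at 0 in 1 library. The EPHA5 points of ctrl lie apart from the other 12, and the EFNA1 points of the SA1Q line lie below the other 10.

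In the test over the 7 groups, EFNA1 passed an adjusted p under 0.05 (edgeR adjusted p = 0.0027), as did 1.57% of all 16418 genes tested. EPHA5 also passed, but its difference from ctrl was known when the genes were selected, so nothing is read from that or from a count that includes it. The other 8 did not pass, EFNA4 coming nearest (adjusted p = 0.17).

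EFNA1, which encodes ephrin-A1, a ligand first known from endothelial cells and common in epithelia, was lowest in the SA1Q line. Its level was 10.05 and 8.69 CPM in ctrl, 5.11 and 5.13 in SA1Q, and 4.45 and 4.83 in SA1Q+gRNA. In SA1+gRNA it was 6.28 and 6.38 CPM. In the ADAR2 lines it was 7.98 and 9.01 CPM in SA2Q, 7.75 and 7.93 in SA2Q+gRNA, and 7.04 and 7.66 in SA2+gRNA. The 4 libraries of the SA1Q line were thus below all 10 others, SA1+gRNA came next, and the 6 ADAR2 libraries lay between SA1+gRNA and ctrl or within the range of ctrl. Of all genes tested, 1.94% had the 4 SA1Q line libraries below the other 10 and 1.67% had them above.

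The log2 change of EFNA1 against ctrl was -0.87 (SE 0.12, edgeR adjusted p = 0.0030) in SA1Q and -1.01 (SE 0.13, adjusted p = 0.0016) in SA1Q+gRNA. These are falls of 1.83-fold and 2.01-fold. It was -0.56 (SE 0.12, adjusted p = 0.12) in SA1+gRNA, -0.35 (SE 0.12, adjusted p = 0.32) in SA2+gRNA, -0.25 (SE 0.12, adjusted p = 0.49) in SA2Q+gRNA and -0.14 (SE 0.12, adjusted p = 0.80) in SA2Q. These 6 comparisons share the 2 ctrl libraries. Without ctrl replicate 1 and SA1Q+gRNA replicate 1 together, the change was -0.76 in SA1Q and -0.85 in SA1Q+gRNA. In that fit ctrl and SA1Q+gRNA have no replicate, so only the sizes are given. The summed epithelial markers moved with EFNA1, at a mean of 527 CPM in SA1Q and 556 in SA1Q+gRNA against 656 in ctrl, with a range of 513 to 675 over all libraries. The summed fibroblast markers were at 6.22, 7.25 and 9.65 CPM in these 3 groups and the summed blood markers, mostly CD68, at 12.8, 13.3 and 18.8. The summed neuronal-lineage markers went the other way, at 227 CPM in SA1Q and 220 in SA1Q+gRNA against 183 in ctrl. The part of these markers in the EFNA1 result was not tested.

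EFNA4, which encodes another lipid-anchored ligand, was also lowest in the SA1Q line, by less. It was at 4.59 and 4.49 CPM in ctrl, 3.53 and 3.33 in SA1Q, and 3.60 and 3.89 in SA1Q+gRNA. The 2 SA1+gRNA libraries were at 4.73 and 4.74 CPM, and the 6 ADAR2 libraries ranged from 4.20 to 5.02. The SA1Q line libraries were below all 10 others here too. The change of EFNA4 against ctrl did not pass in SA1Q (log2 -0.40, SE 0.14, edgeR adjusted p = 0.11) or in SA1Q+gRNA (-0.27, SE 0.14, adjusted p = 0.39). A transcript of the antisense gene DCST1-AS1 overlaps EFNA4 over 255 bases, so the count of EFNA4 is uncertain to that extent.

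**Figure D2:**
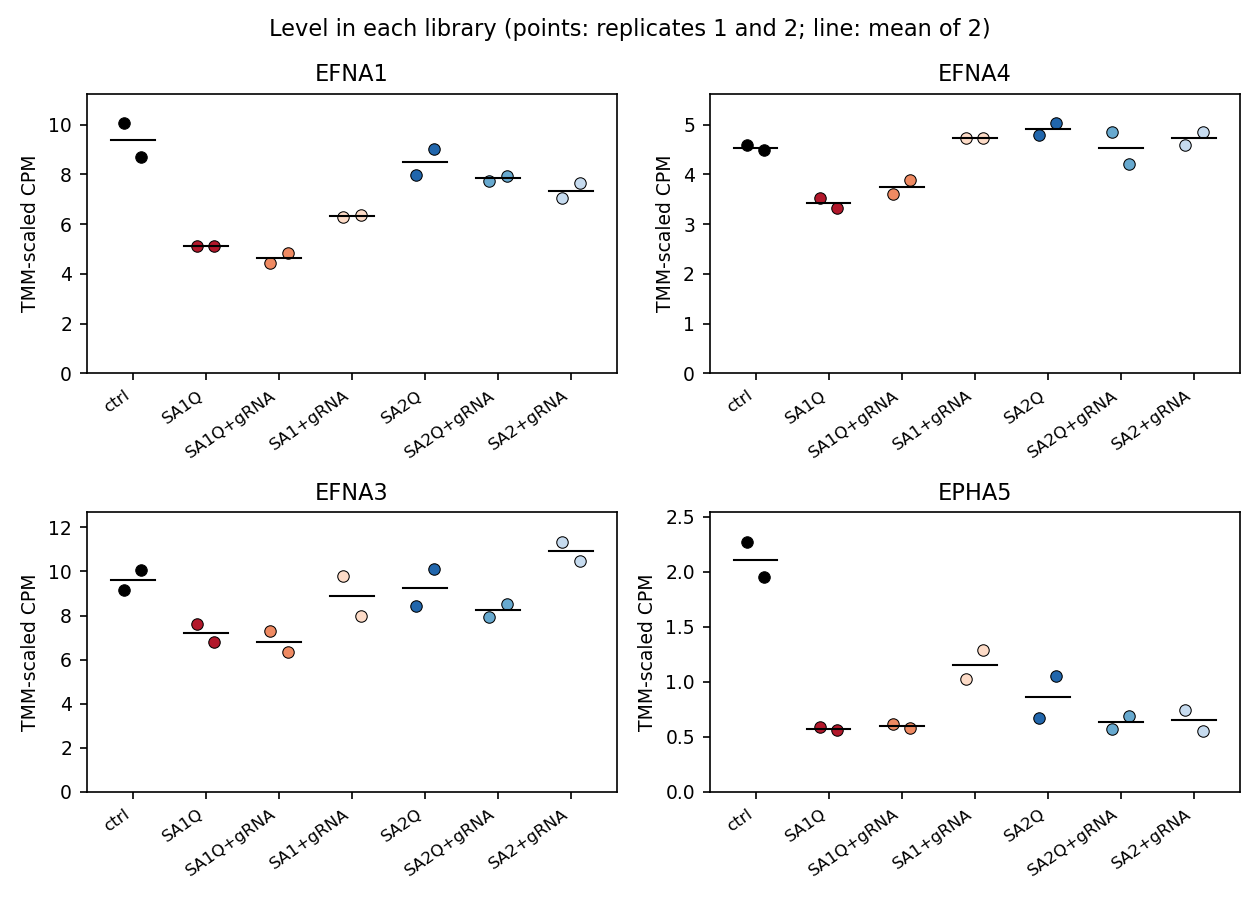
TMM-scaled CPM of EFNA1, EFNA4, EFNA3 and EPHA5 in each library, with points for replicates 1 and 2 and a line for their mean, on axes that start at 0. EFNA1, EFNA4 and EFNA3 are lowest in the 4 libraries of SA1Q and SA1Q+gRNA, while EPHA5 is highest in the 2 ctrl libraries.

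EPHA5 encodes a receptor best known from the nervous system, and ctrl was its only group above 1.29 CPM. Its level was 2.27 and 1.95 CPM in ctrl, 0.58 and 0.56 in SA1Q, 0.62 and 0.57 in SA1Q+gRNA, and 1.02 and 1.29 in SA1+gRNA. In SA2Q it was 0.67 and 1.05 CPM, in SA2Q+gRNA 0.57 and 0.69, and in SA2+gRNA 0.74 and 0.55. The 2 ctrl libraries were above the other 12, as they were for 2.05% of all genes tested (2.93% had them below). The log2 change against ctrl was -1.88 (SE 0.28) in SA1Q, -1.82 (SE 0.28) in SA1Q+gRNA, -1.73 (SE 0.27) in SA2Q+gRNA, -1.71 (SE 0.28) in SA2+gRNA, -1.27 (SE 0.27) in SA2Q and -0.85 (SE 0.25) in SA1+gRNA.

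These EPHA5 values rest on 24 to 156 fragments per library, with 95 and 103 in ctrl. The gene lies on the minus strand of chromosome 4 (66185281 to 66536213) and overlaps EPHA5-AS1 over 535 bases. That antisense gene held 32 and 38 fragments in ctrl and 3 to 38 over all libraries, and its part in the count of EPHA5 was not tested. Among comparisons without ctrl, EPHA5 was at a log2 difference of 0.87 (SE 0.28, edgeR adjusted p = 0.91) between SA1+gRNA and SA2+gRNA and of -0.98 (SE 0.29, adjusted p = 0.11) between SA1Q+gRNA and SA1+gRNA. Neither passed.

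EPHA7, a receptor of neural and other embryonic tissue (chromosome 6, 93949740 to 94129300, minus strand), stood at 47.5 and 62.1 CPM in ctrl and at 68.9 and 69.0 in SA1Q. It was at 62.3 and 72.8 CPM in SA1Q+gRNA, 63.9 and 67.2 in SA1+gRNA, and 53.2 to 63.1 in the 6 ADAR2 libraries. The SA1Q line overlapped the ADAR2 libraries and lay just above ctrl. Its change in SA1Q against ctrl, log2 0.33 (SE 0.12), did not pass (edgeR adjusted p = 0.14), and passed without ctrl replicate 2 (0.54, adjusted p = 0.031). Without both libraries that stood apart it was 0.15 (adjusted p = 0.39). A short transcript of 1920 bases, which ends early in the gene, was at 0.727 to 0.910 times the FPKM of the one used, with fragments that the transcripts share counted in each.

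EPHA4, the receptor that binds both ephrin classes (chromosome 2, 222282747 to 222437010, minus strand), had its lowest and its highest value within ctrl. These were 14.95 and 24.96 CPM, and the other 12 libraries ranged from 15.2 to 23.0. No change against ctrl passed, with log2 values from -0.29 (SE 0.19, SA2Q+gRNA) to 0.09 (SE 0.19, SA1Q). Without the 2 libraries that stood apart, which include the low ctrl library, EPHA4 was at -0.51 against ctrl in SA2Q and at -0.60 in SA2Q+gRNA. In that fit ctrl has no replicate and calls over all genes rose, so only the sizes are given.

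The 3 EPHB receptors passed in no comparison. EPHB4 (chromosome 7, 100400187 to 100425143, minus strand) ranged from 98.2 to 126.1 CPM, and its highest library was SA1Q+gRNA replicate 1. EPHB2, a receptor of axons, synapses and the intestinal crypt (chromosome 1, 23037331 to 23241823, plus strand), was at 13.9 and 16.0 CPM in ctrl and at 15.1 to 19.3 in the other 12 libraries. EPHB3, a close relative of EPHB2 with overlapping roles (chromosome 3, 184279587 to 184300196, plus strand), ranged from 2.70 to 4.81 CPM. The largest log2 values against ctrl were 0.13 (SE 0.09) for EPHB4 in SA1Q+gRNA, 0.27 (SE 0.11) for EPHB2 in SA2+gRNA and -0.37 (SE 0.21) for EPHB3 in SA1+gRNA.

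The ephrin-B ligands differed little. EFNB1, which encodes ephrin-B1 (X chromosome, 68048840 to 68062006, plus strand), ranged from 41.7 to 55.3 CPM with all groups overlapping ctrl or each other. EFNB2 (chromosome 13, 107142079 to 107187388, minus strand) was at 104.8 and 114.4 CPM in ctrl, 126.5 and 126.9 in SA1Q, and 134.5 and 130.4 in SA1Q+gRNA. The other 8 libraries of EFNB2 lay between 108.1 and 126.1 CPM, so the 4 SA1Q line libraries were above all 10 others, by a small margin. Its change against ctrl, log2 0.21 (SE 0.08) in SA1Q and 0.27 (SE 0.08) in SA1Q+gRNA, did not pass (edgeR adjusted p = 0.15 and 0.12), though it passed in SA1Q+gRNA in 3 of 27 alternative analyses.

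In the counts by comparison EPHA5 is left aside, since its difference from ctrl was known at selection. EFNA1 alone was called in SA1Q against ctrl, lower, beside 1.74% of all genes lower and 1.07% higher (2.8% in either direction). In SA1Q+gRNA against ctrl EFNA1 alone was called too, lower, beside 0.621% of all genes (0.42% higher, 1.04% in either direction). No gene was called in SA2Q+gRNA (0.0244% of all genes lower, 0.067% in either direction) or in SA2+gRNA (0.0365% lower, 0.067% higher, 0.104% in either direction). None was called in SA2Q (0.0853% of all genes in either direction, 0.0548% higher and 0.0305% lower) or SA1+gRNA (0.0426% in either direction, 0.0305% higher and 0.0122% lower). Of those genes, none in SA2Q and EFNA1 in SA1+gRNA had an unadjusted p under 0.05, beside 1455 and 1750 of all 16418 genes. DESeq2 called EFNA1 in SA1+gRNA (-0.57, adjusted p = 0.016). With EPHA5 the counts called are 2 in SA1Q, 2 in SA1Q+gRNA, 1 in SA2Q+gRNA and 1 in SA2+gRNA, and nothing is read from those. All these counts are descriptions, since the 10 genes were chosen with earlier results of these data known. The median log2 change of the 10 genes lay between -0.0005 and 0.06 in the 6 comparisons, and that of all genes between -0.0047 and 0.0048.

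**Figure D3:**
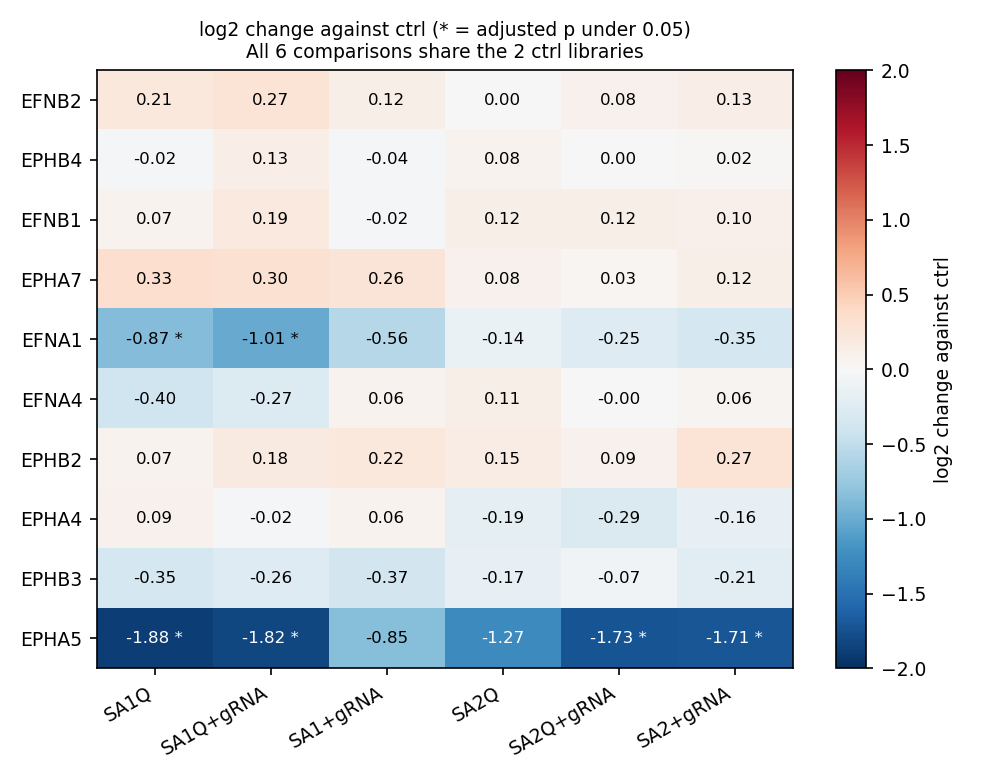
Log2 change against ctrl of the 10 genes (rows, by FPKM) in the other 6 groups (columns), with a star for an adjusted p under 0.05. EPHA5 is below 0 in all 6 columns, from -0.85 to -1.88, and EFNA1 from -0.14 to -1.01. Nothing is read from the stars of EPHA5, whose difference from ctrl was known when the genes were selected. The 6 columns share the 2 ctrl libraries.

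A comparison that uses no ctrl library set the SA1Q line (SA1Q and SA1Q+gRNA, 4 libraries) against the SA2Q line (SA2Q and SA2Q+gRNA, 4 libraries). EFNA1 was lower in the SA1Q line, at 4.45 to 5.13 CPM against 7.75 to 9.01 (log2 -0.74, SE 0.09, edgeR adjusted p = 0.0014). EFNA4 was lower too, at 3.33 to 3.89 CPM against 4.20 to 5.02 (log2 -0.39, SE 0.09, adjusted p = 0.040). These 2 of the 10 genes were called lower and 0 higher, beside 1.72% and 1.03% of all genes (2.75% in either direction). The 10 were chosen with earlier results of these data known, so the count is a description only. Of the rest of the family, 0 of 11 tested genes were called. The EFNA4 call was the weaker: it passed in 10 of 27 alternative analyses, with adjusted p from 0.027 to 0.19, whereas EFNA1 passed in all 27.

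EFNB2 was at 126.5 to 134.5 CPM in the SA1Q line against 108.1 to 119.1 in the SA2Q line (log2 0.20, SE 0.06, edgeR adjusted p = 0.073), and did not pass. EPHA7 (0.26, SE 0.09, adjusted p = 0.13) and EPHA4 (0.28, SE 0.14, adjusted p = 0.32) did not either. Among alternative analyses of all libraries, EFNB2 passed with DESeq2 (0.20, adjusted p = 0.019). With edgeR it passed with offsets for length (0.20, adjusted p = 0.043) and for length with GC (0.19, adjusted p = 0.024). The latter also called EPHA7 (0.21, adjusted p = 0.045). The other alternatives that kept all libraries called none of these genes. Without the 2 libraries that stood apart, EFNB2 was at 0.19, EPHA7 at 0.31 and EPHA4 at 0.37, with EFNA1 at -0.72 and EFNA4 at -0.37. In that fit ctrl and SA1Q+gRNA have no replicate and calls over all genes rose, so only the sizes are given. The 5 others of the 10 had differences of -0.35 to 0.02 in the fit over all libraries and did not pass.

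**Figure D4:**
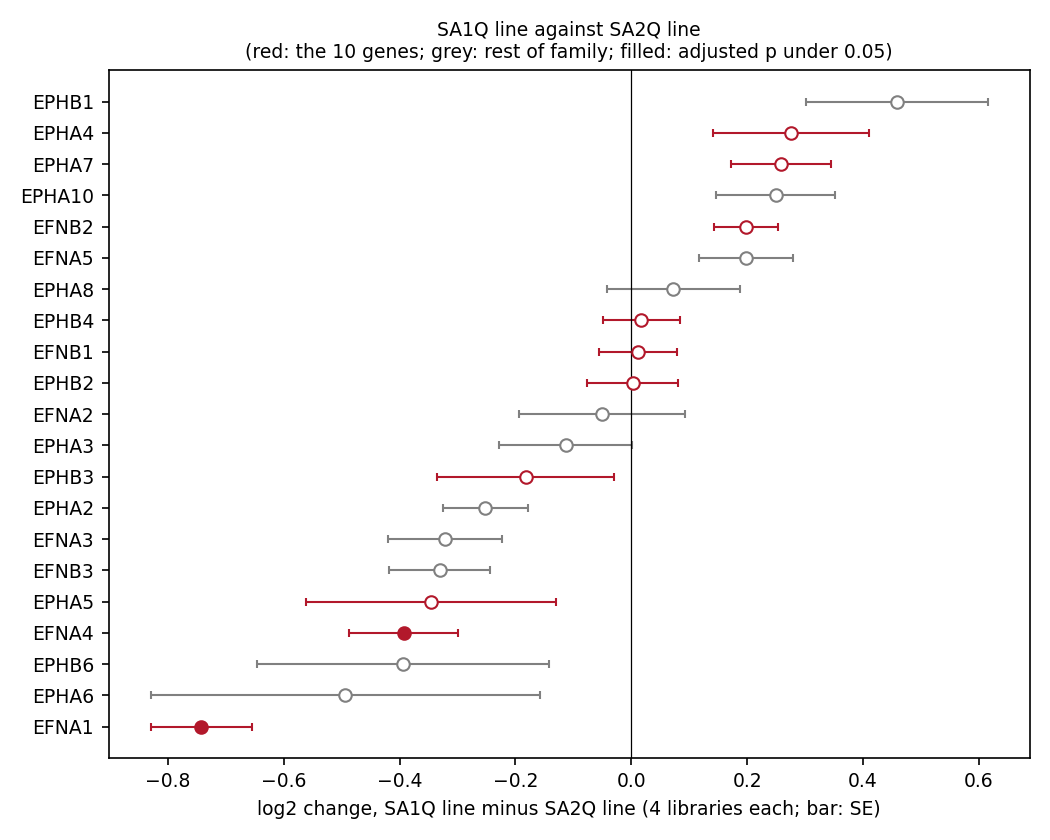
Log2 difference between the SA1Q line and the SA2Q line (4 libraries each) for 21 genes of the family, with bars for the SE, red for the 10 genes and filled points for an adjusted p under 0.05. EFNA1 (-0.74) and EFNA4 (-0.39) are the filled points, and the grey points are the rest of the family.

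None of the 11 tested genes among the other 12 of the family was called in this comparison. An unadjusted p under 0.05 was found for 6 of them, as for 2761 of all 16418 genes. EFNA3, between EFNA4 and EFNA1, was at 6.32 to 7.60 CPM in the SA1Q line and at 7.93 to 11.3 in the other 10 libraries. Its log2 difference between the lines was -0.32 (SE 0.10, edgeR adjusted p = 0.10). EFNB3, a membrane-spanning ligand, was at 10.6 to 11.1 CPM in the SA1Q line and at 11.8 to 16.1 in the other 10 libraries (-0.33, SE 0.09, adjusted p = 0.060). EPHA2, a main receptor of ephrin-A1 in epithelia, was at -0.25 (SE 0.07, adjusted p = 0.088), with overlapping libraries. EFNA5 (0.20, SE 0.08), EPHA10 (0.25, SE 0.10) and EPHB1 (0.46, SE 0.16) lay above 0. The remaining 5 were EPHA8 (0.07, SE 0.11), EFNA2 (-0.05, SE 0.14), EPHA3 (-0.11, SE 0.11), EPHB6 (-0.40, SE 0.25) and EPHA6 (-0.49, SE 0.34). EPHA1 had too few fragments to be tested.

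No difference with the guide passed the test for any of the 10 genes. With against without guide, pooled over both Q lines (4 libraries each), 0 of the 10 were called, as were 0% of all genes. An unadjusted p under 0.05 was found for 0 of the 10, beside 929 of all 16418 genes. Other tools called none of the 10 either. The log2 differences ran from -0.20 (SE 0.22) for EPHA5 and -0.13 (SE 0.09) for EFNA1 to 0.09 (SE 0.15) for EPHB3. The guide difference was itself compared between the lines, and none of the 10 was called (EFNA1 -0.02, SE 0.17; EFNA4 0.25, SE 0.19). Those SEs leave room for differences of that size.

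The Q form of ADAR1 was compared with the form without the change, both with a guide. In SA1Q+gRNA against SA1+gRNA 0 of the 10 were called, beside 0.962% of all genes (0.451% higher, 0.512% lower). An unadjusted p under 0.05 was found for 4 of the 10, beside 2857 of all 16418 genes. EFNA1 was at -0.44 (SE 0.12, edgeR adjusted p = 0.10), EFNA4 at -0.33 (SE 0.13, adjusted p = 0.21) and EFNB1 at 0.21 (SE 0.09, adjusted p = 0.26). Without SA1Q+gRNA replicate 2, EFNA1 was at -0.52, EFNB1 at 0.32 and EPHB4 at 0.30. The single library that then stands for SA1Q+gRNA is among the 2 that stood apart, and calls over all genes rose, so only the sizes are given.

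For ADAR2, SA2Q+gRNA against SA2+gRNA gave 0 calls among the 10 (0.0122% of all genes), 0 at an unadjusted p under 0.05, and EFNA1 at 0.09 (SE 0.12). SA1+gRNA against SA2+gRNA also gave 0 (0.0122% in either direction, 0.00609% higher and 0.00609% lower), 1 at an unadjusted p under 0.05, and EFNA1 at -0.22 (SE 0.12). The difference between the enzymes in their Q contrast was -0.54 for EFNA1 (SE 0.17, edgeR adjusted p = 0.38) and did not pass, and 0 of the 10 were called, with 2 at an unadjusted p under 0.05. Of all 16418 genes, 1291, 787 and 1542 had an unadjusted p under 0.05 in these 3 comparisons, in that order. DESeq2 called none of the 10 in these 3 comparisons.

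Proteins that carry the ephrin signal inside the cell were read from a list of 50 genes, all tested. Over the 7 groups 1 of the 50 passed, NCK2, an adaptor that links phosphorylated receptors to the actin machinery (edgeR adjusted p = 0.048), beside 1.57% of all genes. NCK2 was at 39.9 to 48.2 CPM in the SA1Q line and at 32.1 to 36.3 in the other 10 libraries, with no overlap. Between the SA1Q and SA2Q lines it was higher by a log2 difference of 0.38 (SE 0.06, adjusted p = 0.0069), and it was the 1 gene of the 50 called in SA1Q+gRNA against SA1+gRNA, also higher, beside 0.962% of all genes. ARHGEF16 was the other partner called between the lines and was lower (-0.35, SE 0.08, adjusted p = 0.031), so 2 of the 50 were called there beside 2.75% of all genes. None of the 50 was called in any of the 6 comparisons with ctrl, where 3 to 11 had an unadjusted p under 0.05. Of all 16418 genes, 1455 (SA2Q) to 3479 (SA1Q) had one in these comparisons. GRIP2, a scaffold that binds ephrin-B ligands, was at 0.49 (SE 0.16, adjusted p = 0.11) in SA1Q against ctrl, and NGEF, the exchange factor ephexin, at 0.37 (SE 0.19, adjusted p = 0.28). Both were above 0 in every comparison with ctrl, GRIP2 from 0.14 (SA1+gRNA) to 0.59 (SA1Q+gRNA) and NGEF from 0.06 (SA1+gRNA) to 0.54 (SA2+gRNA). The list's median between the lines was 0.01, as against 0.0045 for all genes.

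Of 48 other axon guidance ligands and receptors, 44 were tested and 1 passed over the 7 groups, SEMA3F, a secreted semaphorin (edgeR adjusted p = 0.012), beside 1.57% of all genes. SEMA3F was at 4.12 to 4.82 CPM in the SA1Q line, 5.88 and 5.85 in ctrl and 5.78 to 8.21 in the other 8 libraries. It was the 1 gene of the 44 called between the SA1Q and SA2Q lines (-0.53, SE 0.09, adjusted p = 0.0053), beside 2.75% of all genes. None of the 44 was called against ctrl, where 3 to 12 had an unadjusted p under 0.05, beside 1455 to 3479 of all 16418 genes. SEMA3B was at -0.81 (SE 0.24, adjusted p = 0.078), SEMA6B at -0.38 (SE 0.20, adjusted p = 0.28) and SEMA5B at -0.27 (SE 0.30, adjusted p = 0.63) in SA1Q. SEMA3B was below 0 in every comparison with ctrl, from -0.43 (SA2+gRNA) to -1.09 (SA1+gRNA), with the ctrl libraries at 2.03 and 3.41 CPM. The median between the lines was 0.0024.

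The genes whose log2 CPM over the 14 libraries was most like that of EFNA1, of 13739 compared, were IFI30 (Pearson's r 0.968), HSPB8 (0.951) and PTPN6 (0.934). They encode a lysosomal thiol reductase, a small heat shock protein and a tyrosine phosphatase. For EPHA5, of 13740 genes, they were FBXO44 (0.902), VEGFC (0.874) and HHIP (0.870), which encode an F-box protein, a lymphatic growth factor and a Hedgehog-binding protein. VEGFC had a log2 change of -1.83 (SE 0.25) in SA1Q against ctrl, close in size to that of EPHA5, while FBXO44 had -0.21 (SE 0.09). These correlations describe the 14 libraries, which share groups, scaling and depth.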

How the data were processed

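Per the labels' protocols, RNA was treated with DNase, polyadenylated RNA was selected, and libraries were made with a strand-keeping kit and sequenced from both ends. The submitters' processing notes name STAR 2.4.2a, Trim Galore and hg19, and the sources used here do not give the counting tool or its use of strand. The deposited files held, for each RefSeq transcript, a whole-number fragment count with no normalization, per the file headers. The authors also deposited FPKM, that count scaled to length and library total, used here for levels between genes and in an alternative, and FPM, fragments scaled to the library total, used to choose 1 transcript per gene. Coordinates are those of the files (hg19, from 1); promoter windows are RefSeq on GRCh38.p14.

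The fit used edgeR 4.0.16 with R 4.3.3 (two-sided quasi-likelihood tests, TMM scaling, filterByExpr with a minimum count of 10) over all 14 libraries with a mean per group, which left 7 residual degrees of freedom. Benjamini-Hochberg adjustment covered the 16418 genes of each comparison, and called means an adjusted p under 0.05. CPM values are TMM-scaled, and SE is the log2 change divided by the square root of its F. The common biological coefficient of variation was 8.67%. Scripts were tested on simulated data. Replicates differed by more than sampling noise (chi-square per degree of freedom 5.54 to 56.5).

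The members and gene lists were chosen with earlier results of these data known. Named genes were the whole family, up to 4 genes of each wider list with the smallest p over the groups, the 3 genes with a mean of at least 1 CPM most like each gene called over the groups, and overlapping genes. A result on 1 neighbouring gene is not reported here. The 27 alternatives were other scalings (RLE, upper quartile), DESeq2 1.42.0, limma 3.58.1 on voom weights and on log2(FPKM + 0.1), no filter or a mean CPM of at least 1, the longest transcript, the even counts divided by 2, offsets for length and for length with GC (the latter chosen after seeing the data), a replicate block, each library left out, and both libraries that stood apart left out.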

Additional observations from a re-analysis of the deposited data

How the results depend on the processing

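The 4 called changes of EFNA1 and EFNA4 kept their sign under all 27 alternatives. Of 122 that were not called, 58 changed sign under at least 1. EFNA1 was called under all 27 in SA1Q and SA1Q+gRNA against ctrl and between the lines. As a description, EPHA5 against ctrl ranged from -2.02 to -1.03 on the log2 scale in SA1Q, -1.93 to -1.02 in SA1Q+gRNA, -1.87 to -0.98 in SA2Q+gRNA and -1.93 to -0.97 in SA2+gRNA. At a mean CPM of at least 1 it is below the filter. The counts against ctrl and over the 7 groups that follow include EPHA5 and are no evidence for it.

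With that filter the genes called among the 10 numbered 1 over the 7 groups, 1 in SA1Q, 1 in SA1Q+gRNA, 0 in SA2Q+gRNA and 0 in SA2+gRNA against ctrl, since 9 were tested. In SA2Q against ctrl 1 was called, EPHA5, by DESeq2, with no filter and with the length and GC offset. Without both libraries that stood apart, EPHA5 was at -1.16 and EPHA4 at -0.51 in SA2Q against ctrl. In SA1+gRNA against ctrl DESeq2 called 1. The length and GC offset called 4 in SA1Q+gRNA against ctrl, and each offset called 1 in SA1Q+gRNA against SA1+gRNA. Limma on FPKM called 0 in SA2Q+gRNA and 0 in SA2+gRNA against ctrl. Between the lines 1 was called by limma-voom, with no filter and with the replicate block. Without both libraries that stood apart, 5 were called between the lines and 2 in SA2Q+gRNA against ctrl. The cause was not tested.

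Leaving out 1 library at a time gave 1 to 3 calls in SA1Q against ctrl, 0 to 1 in SA2Q+gRNA and in SA2+gRNA against ctrl, 1 to 3 between the lines, and 0 to 3 in SA1Q+gRNA against SA1+gRNA. The EFNA4 call was lost without any 1 of 12 libraries. A library left alone in its group is assumed to vary like the others.

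Counts over all genes moved more. Over the alternatives they ran from 91 to 1831 over the 7 groups (258 in the fit reported), 38 to 1218 in SA1Q (460), 2 to 569 in SA2Q (14), 93 to 963 in SA1Q+gRNA (171), 2 to 850 in SA2Q+gRNA (11), 4 to 382 in SA1+gRNA (7) and 2 to 473 in SA2+gRNA (17) against ctrl. They ran from 85 to 1959 between the lines (452), 17 to 2082 in SA1Q+gRNA against SA1+gRNA (158), 1 to 119 in SA2Q+gRNA against SA2+gRNA (2), 2 to 9 in SA1+gRNA against SA2+gRNA (2), 0 to 93 for the guide (0), and 0 to 326 for the Q contrast between enzymes (0).

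Replicate numbers did not pair the samples in general: replicate differences correlated between groups at -0.14 to 0.44 over 21 pairs (median -0.019, 2 pairs over 0.1). The highest value was for ctrl and SA1Q+gRNA, whose replicates 1 are the 2 libraries that stood apart. In mean correlation, 6 of 14 libraries deviated more like same-numbered than other-numbered libraries. The 2 libraries of a group give the same answer there by construction. The replicate block lost the EFNA4 call (adjusted p = 0.059) and changed no other call among the 10 genes. EPHA5 is limited by its 24 to 156 fragments.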

Other observations

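The neighbourhood of the EFNA4, EFNA3 and EFNA1 genes was read after their values were seen. Within 250 kb on either side of them, 32 genes were tested between the SA1Q and SA2Q lines. Of the 29 genes there that are not ephrins, 19 were below 0, with a median log2 difference of -0.07. The median over all genes tested was 0.0045. ADAM15, the gene next to EFNA4, was at -0.12 between the lines (edgeR adjusted p = 0.42), and SLC50A1, the gene next to EFNA1, at -0.21 (adjusted p = 0.13).

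Over the 14 libraries, log2 CPM of EFNA1 and EFNA4 had a Pearson's r of 0.777, EFNA1 and EFNA3 of 0.691, EFNA3 and EFNA4 of 0.704, and EFNA1 and EPHA5 of 0.588. These describe libraries that share groups, scaling and depth.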
